A study of Mus musculus with 6 samples.

Results

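The genes described here are 9 genes of the T cell surface and of the first signalling steps behind the T cell receptor: Thy1, Cd2, Cd5, Cd6, Cd28, Cd27, Lck, Zap70 and Lat. They were chosen by name with earlier results of these data known, as were the gene lists below. Counts of members or list genes therefore describe the data and test nothing. Every probe set whose only annotated gene symbol is one of the 9 was taken. This gave 11 probe sets for 8 of the 9 genes, among 45037 probe sets and 18193 genes in all. No probe set carried the symbol Lck in the annotation used, so Lck, the kinase that starts the cascade, was not analysed here.

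The cells were bone marrow progenitors, taken by a gate of Lin-Sca1+CD150+CD48+ (no lineage markers, with the other 3 surface proteins present), from mice 8 weeks old on a mixed background. The dKO group carried the MxCre transgene with floxed alleles of c-myc and N-myc, and the Control group carried the same floxed alleles without MxCre. MxCre is driven by an interferon-inducible promoter, so Cre is not restricted to progenitors, and pI-pC, which induces interferon, was given to Control and dKO mice alike on 2 days, ending 3 days before they were killed. There were 3 arrays per group, with 2 mice pooled for a Control array and 3 for a dKO array, so an effect of MxCre itself and of the pool size cannot be told apart from the loss of both genes. Control 1 is labelled by tissue as long-term stem cells, although its gate and title are those of the other arrays. The comparison asks how these transcripts differ in progenitors without c-Myc and N-Myc.

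T cells read antigen through a receptor that has no enzyme of its own. The kinase LCK phosphorylates the CD3 and zeta chains, ZAP-70 docks there and is activated, and ZAP-70 then phosphorylates the membrane adaptor LAT, on which further adaptors and enzymes assemble. CD2 and CD28 lower the threshold for this response, CD5 restrains it, and CD27 is a co-stimulatory receptor of the tumour necrosis factor receptor family. Several of these genes are also used outside T cells: NK cells express Zap70, Lat and Cd2, megakaryocytes and mast cells express Lat, and early blood progenitors carry CD27 and, in part, Thy1.

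As a check of the genotype, the Myc probe set stood between 10.47 and 10.95 in Control and between 7.44 and 7.99 in dKO (log2 values), and 1 of the 3 Mycn probe sets fell by 5.27, while the other Mycn probe sets did not pass the test. By its brightest probe set, the choice that represents each gene below, Mycn changed by -0.83 ± 0.27 (SE, limma adjusted p = 0.133) and did not pass. The labels do not say which probe sets lie in the deleted exons. Array medians lay between 5.91 and 5.94. The lower quartile of dKO 3 was 4.47, against 4.23 to 4.31 in the other 5 arrays. Control 1 and dKO 1 alone showed Xist signal in all 3 of its probe sets (7.17 to 11.32, against 3.73 to 5.86 in the other arrays); Xist is expressed in female cells.

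Of the 8 measured genes, 4 rose in dKO and 0 fell (limma, adjusted p below 0.05 over all genes): Thy1, Cd2, Zap70 and Lat. Over all 18193 genes 3.12% rose and 2.85% fell. At an unadjusted p below 0.05 the same counts were 4 higher and 0 lower, where 9.10% of all genes were higher and 9.14% lower. For each of them the lowest dKO array exceeded the highest Control array, a pattern seen in 12.7% of all genes (10.7% had the reverse), and in the other 4 the groups overlapped. The median log2 fold change of the 8 genes was 0.60, beside 0.05 over all genes. The counts depend on single arrays: with 1 array left out, between 1 and 3 members passed, and Cd2 passed in all 6 of these settings. The number was 1 without Control 2 or Control 3, 2 without Control 1, dKO 2 or dKO 3, and 2 without Control 1 and dKO 1 together. Over all 18193 genes, 567 rose with all arrays, and from 331 (without Control 3) to 617 (without dKO 3) with 1 array left out. Without Control 1 and dKO 1 together, 303 of all genes rose. In bulk RNA, more cells that express a gene and more of its RNA per cell cannot be told apart.

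**Figure D1:**
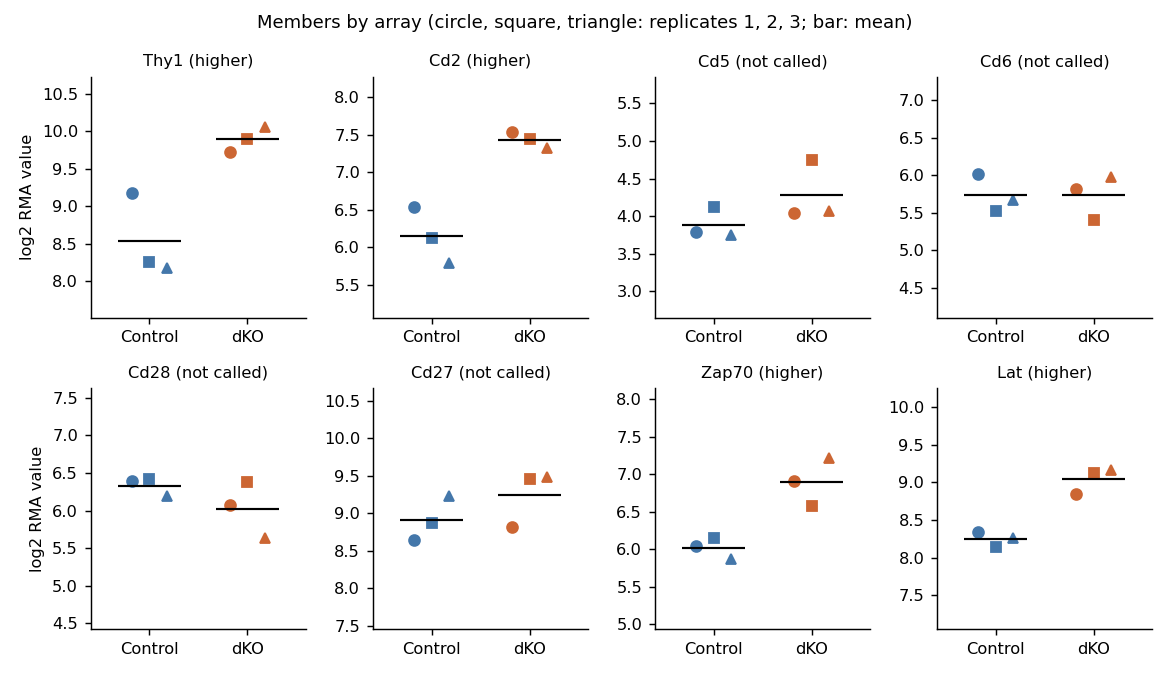
Log2 RMA value of each of the 8 measured members in each array, by its brightest probe set; the panels have axes of equal span, and the bars are group means. In Thy1, Cd2, Zap70 and Lat every dKO point lies above every Control point, and in Cd5, Cd6, Cd28 and Cd27 the groups overlap.

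Among the surface receptors the largest difference was in Thy1, a glycolipid-anchored protein of T cells that is also found on part of the stem and progenitor cells. Its log2 value was 9.18, 8.26 and 8.18 in Control 1, 2 and 3 and 9.72, 9.89 and 10.06 in dKO 1, 2 and 3. Control 1 stood apart from the other controls and lay closest to the dKO arrays, which varied little. Thy1 rose from 8.54 ± 0.56 to 9.89 ± 0.17 (SD, n = 3), by 1.35 ± 0.27 (SE), a 2.55-fold change with limma's adjusted p = 0.0191. This was 0.0864 without Control 2, 0.0772 without Control 3, 0.0617 without dKO 2 and 0.0609 without dKO 3, whereas without Control 1 the log2 fold change was 1.67 with adjusted p = 0.00361.

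Cd2, the adhesion receptor that in the mouse binds CD48, gave the smallest p of the members. Its log2 value was 6.54, 6.13 and 5.79 in Control and 7.54, 7.44 and 7.32 in dKO. The gap between the groups was wider than the range of either. Cd2 rose from 6.15 ± 0.38 to 7.44 ± 0.11 (SD, n = 3), by 1.28 ± 0.21 (SE), a 2.43-fold change with limma's adjusted p = 0.00859. With each array left out in turn its adjusted p ran from 0.00639 to 0.0416.

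The scavenger receptors Cd5 and Cd6, which neighbour each other on chromosome 19 in the RefSeq table of assembly GRCm38.p6, did not pass. Cd5, which dampens antigen receptor signals, was dim: it stood at 3.79, 4.12 and 3.75 in Control and 4.04, 4.75 and 4.07 in dKO, and 5 of these 6 values lay below the lower quartile of their array. Its log2 fold change was 0.40 ± 0.23 (SE), with a 95% interval from -0.12 to 0.92 and adjusted p = 0.425 (limma). Values this close to the bottom of the RMA scale understate a change. Cd6 stood at 6.01, 5.52 and 5.67 in Control and 5.81, 5.40 and 5.98 in dKO. Its log2 fold change was -0.01 ± 0.21 (SE), with a 95% interval from -0.49 to 0.48 (limma, adjusted p = 0.996). The ends of this interval are a 1.40-fold fall and a 1.39-fold rise. With a mean of 5.73 Cd6 was dim as well, and RMA compresses differences of dim probe sets.

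Neither co-stimulatory receptor passed. Cd28, which binds CD80 and CD86, was read by 2 probe sets. The brighter stood at 6.39, 6.42 and 6.19 in Control and 6.07, 6.38 and 5.63 in dKO, with dKO 3 the lowest. Its log2 fold change was -0.31 ± 0.22 (SE), with a 95% interval from -0.80 to 0.18 (limma, adjusted p = 0.539), and that of the dimmer probe set was -0.28 ± 0.23 (adjusted p over all probe sets = 0.644). Cd27, the receptor for CD70, stood at 8.64, 8.87 and 9.23 in Control and 8.81, 9.45 and 9.48 in dKO, so dKO 1 lay within the Control range. The log2 fold change of Cd27 was 0.33 ± 0.24 (SE), with a 95% interval from -0.21 to 0.87 (limma, adjusted p = 0.555).

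Both measured genes of proximal signalling rose, by less than 2-fold in each gene's brightest probe set. Lat, the adaptor phosphorylated by ZAP-70, stood at 8.34, 8.14 and 8.26 in Control and 8.84, 9.12 and 9.16 in dKO. Both groups were tight, with SDs of 0.10 and 0.17. Lat rose from 8.24 to 9.04, by 0.80 ± 0.17 (SE, n = 3), a 1.74-fold change with limma's adjusted p = 0.0273. This was 0.0663 without Control 1, 0.114 without Control 2, 0.101 without Control 3 and 0.0728 without dKO 2.

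Zap70, the kinase that binds the phosphorylated receptor chains, was read by 3 probe sets that differed. The brightest, which represents the gene, stood at 6.05, 6.15 and 5.87 in Control and 6.91, 6.58 and 7.21 in dKO. It rose by 0.87 ± 0.20 (SE), a 1.83-fold change with limma's adjusted p = 0.0366, and the suffix _x_at of its identifier marks probes that can also bind other transcripts. In the fit over all probe sets it did not pass (adjusted p = 0.0602). The dimmest stood at 4.01, 4.23 and 4.17 in Control and 5.59, 5.08 and 5.15 in dKO and rose by 1.14 ± 0.20 (SE), a 2.20-fold change that passed over all probe sets (adjusted p = 0.0179). The call of the dimmest probe set did not hold without Control 1, Control 2, Control 3 or dKO 1 (adjusted p up to 0.0697), or without Control 1 and dKO 1 together (0.163). The remaining probe set lay between 5.64 and 6.45 in all arrays and changed by 0.17 ± 0.23 (SE, adjusted p over all probe sets = 0.807), with only dKO 3 above the controls. When probe sets ending in _x_at and _s_at were left out, this probe set represented Zap70 and the gene did not pass (adjusted p = 0.79). The Zap70 call of the brightest probe set held in 1 of the 6 settings with an array left out, that without dKO 2 (adjusted p = 0.0295), and reached adjusted p = 0.147 without Control 3.

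In the fit over all 45037 probe sets, 4 of the 11 probe sets of the members rose, 1 each for Thy1, Cd2, Zap70 (its dimmest) and Lat, and 0 fell. Over all probe sets 1.83% rose and 1.78% fell. Between 0 and 2 of the 11 passed with 1 array left out: 0 without Control 2, Control 3 or dKO 1, 1 without dKO 2, and 2 without Control 1 or dKO 3. The number was 1 without Control 1 and dKO 1 together.

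**Figure D2:**
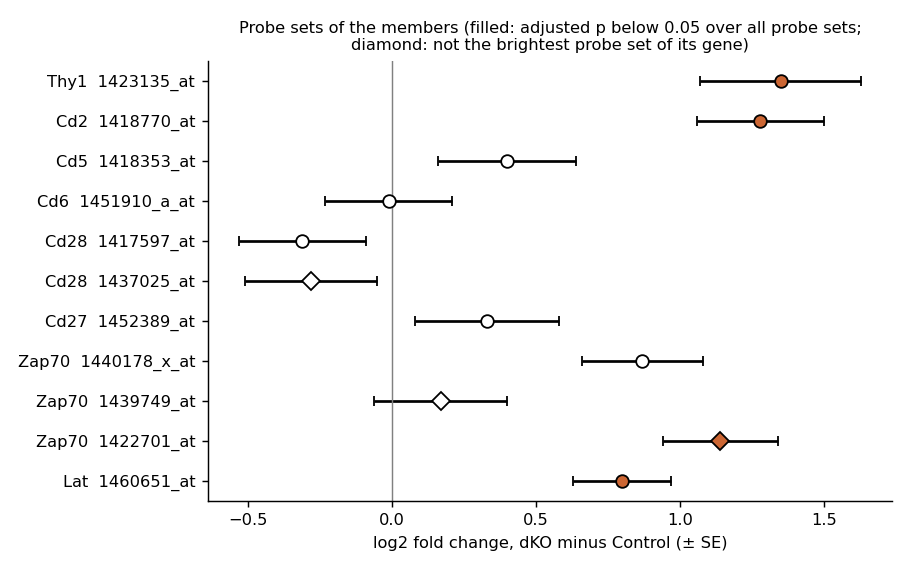
Log2 fold change (dKO minus Control) of the 11 probe sets of the members, with the SE of the limma fit over all probe sets as bars; filled symbols passed after adjustment over all probe sets. Both Cd28 probe sets lie below 0, and the 3 Zap70 probe sets run from 0.17 to 1.14.

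RefSeq promoter windows of assembly GRCm38.p6 were held for 5 of the 9 genes: Lck, Lat, Zap70, Cd5 and Cd27. The 250 bases before the annotated start were searched on both strands for 4 motifs: CACGTG, the E-box that MYC and MAX bind; AGGAAG, a core of ETS factors; TGTGGT, of RUNX factors; and AGATAA, of GATA factors. None of these motifs contains another. The windows of Lat and Zap70, which rose, and of Cd5, which did not pass, are shown with the matches in capitals. Lat lies on the minus strand (chr7:126369569-126369818), the most upstream of the 3 Zap70 windows on the plus strand (chr1:36761548-36761797) and Cd5 on the minus strand (chr19:10738975-10739224).
Lat: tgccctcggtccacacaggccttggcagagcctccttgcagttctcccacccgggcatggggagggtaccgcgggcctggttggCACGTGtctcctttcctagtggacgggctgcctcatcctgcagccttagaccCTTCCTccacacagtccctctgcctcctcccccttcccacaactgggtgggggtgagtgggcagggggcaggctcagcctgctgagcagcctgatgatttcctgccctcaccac
Zap70: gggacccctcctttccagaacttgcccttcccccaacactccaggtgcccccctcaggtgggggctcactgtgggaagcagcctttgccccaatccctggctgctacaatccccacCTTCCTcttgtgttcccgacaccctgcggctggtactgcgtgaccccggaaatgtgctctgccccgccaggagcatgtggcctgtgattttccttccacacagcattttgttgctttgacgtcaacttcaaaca
Cd5: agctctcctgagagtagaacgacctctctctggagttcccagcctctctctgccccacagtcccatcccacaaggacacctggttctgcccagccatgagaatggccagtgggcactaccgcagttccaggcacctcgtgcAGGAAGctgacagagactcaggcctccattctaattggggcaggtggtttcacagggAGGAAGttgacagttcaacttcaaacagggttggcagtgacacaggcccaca
Lat held 1 CACGTG and 1 AGGAAG on the opposite strand. Of all 32851 windows of this length, 6.02% held CACGTG and 29.5% AGGAAG. This Zap70 window held 1 AGGAAG on the opposite strand and that of Cd5 held 2 in the forward direction. Another Zap70 window held 2 AGGAAG and 1 TGTGGT, a motif in 14% of all windows, and the remaining Zap70 window held 0 matches to the 4 motifs. On both strands, the more upstream Lck window held 3 AGGAAG and 1 TGTGGT, and the other Lck window held 1 AGGAAG. The window of Cd27, which did not pass, held 0 matches to the 4 motifs, and AGATAA, found in 9.99% of all windows, was in 0 windows of the 5 genes. A match is a description of the letters only.

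Of 28 measured genes that carry the antigen receptor signal forward, 7 rose and 0 fell (limma, over all genes). At an unadjusted p below 0.05, 11 were higher and 0 lower. For this and the pathway lists below, the shares over all genes were 3.12% higher and 2.85% lower (9.1% and 9.14% at that unadjusted p). The median log2 fold change of the 28 genes was 0.32, beside 0.05 over all genes. The number of the 28 that passed ran from 6 to 9 with 1 array left out. Lcp2, which encodes SLP-76, the adaptor that ZAP-70 phosphorylates alongside LAT, stood at 8.34, 8.32 and 8.38 in Control and 10.02, 9.67 and 9.72 in dKO. The rise of Lcp2 was 1.46 ± 0.17 (SE) or 2.75-fold (adjusted p = 0.00146). Prkcq, protein kinase C theta of the T cell contact zone, stood at 7.28, 7.52 and 7.82 in Control and 9.40, 9.49 and 9.16 in dKO. The rise of Prkcq was 1.81 ± 0.20 (SE) or 3.5-fold (adjusted p = 0.00109). In both genes the controls lay far below every dKO array.

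Rasgrp1, which activates Ras after antigen receptor signals, rose by 1.94 ± 0.27 (SE, adjusted p = 0.00334), and its 4 probe sets ran from 1.43 to 2.45. Skap1, an adaptor that links the receptor to integrins, rose by 1.74 ± 0.23 (SE, adjusted p = 0.00248), with 3 probe sets from 0.63 to 1.74. The calls of Lcp2, Prkcq, Rasgrp1 and Skap1 held whichever array was left out (adjusted p of at most 0.0185). The other 3 genes that rose are named because they complete the count: Txk, a Tec family kinase (2.04 ± 0.36), Sh2d2a, an adaptor that binds LCK (1.17 ± 0.20), and Sh2d1a, the adaptor of SLAM receptors (1.44 ± 0.32). Sh2d1a held its call only without Control 1 or dKO 3, with adjusted p up to 0.114. Txk had adjusted p = 0.0641 without Control 1 and dKO 1 together.

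The related kinases Syk and Fyn did not pass. Syk, which does the work of ZAP-70 in B cells, mast cells and platelets, stood at 8.88, 9.02 and 9.24 in Control and 9.03, 9.13 and 8.87 in dKO. Its log2 fold change was -0.04 ± 0.18 (SE), with a 95% interval from -0.43 to 0.36 (limma, adjusted p = 0.954). Fyn, the Src family kinase that shares tasks with LCK, stood at 8.94, 9.51 and 9.68 in Control and 9.0, 8.85 and 8.91 in dKO, a change of -0.46 ± 0.21 (SE, adjusted p = 0.307). Whether Zap70 and Syk differed in their change was not tested. Bcl10 (0.53 ± 0.19) and Nck2 (0.81 ± 0.29) had the smallest p of the 21 genes that did not pass.

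Of 17 genes that restrain the signal, 3 rose and 0 fell (limma, over all genes; 8 and 0 at an unadjusted p below 0.05), with a median log2 fold change of 0.43. Dok2, a docking protein that recruits an inhibitor of Ras, stood at 6.65, 6.48 and 6.92 in Control and 8.27, 8.24 and 8.41 in dKO. The rise of Dok2 was 1.63 ± 0.18 (SE) or 3.09-fold (adjusted p = 0.00118). Ubash3b, a phosphatase that acts on ZAP-70 and SYK, rose by 1.10 ± 0.18 (SE, adjusted p = 0.00888). Lax1, an adaptor that lowers antigen receptor signals, rose by 1.31 ± 0.24 (SE, adjusted p = 0.0142). Lax1 had adjusted p up to 0.055 when Control 3, dKO 1 or dKO 2 was left out and 0.0541 without Control 1 and dKO 1 together. Ubash3a (0.73 ± 0.19) and Sla2 (0.66 ± 0.18) lay just outside the threshold, with adjusted p = 0.0609 and 0.0714.

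**Figure D3:**
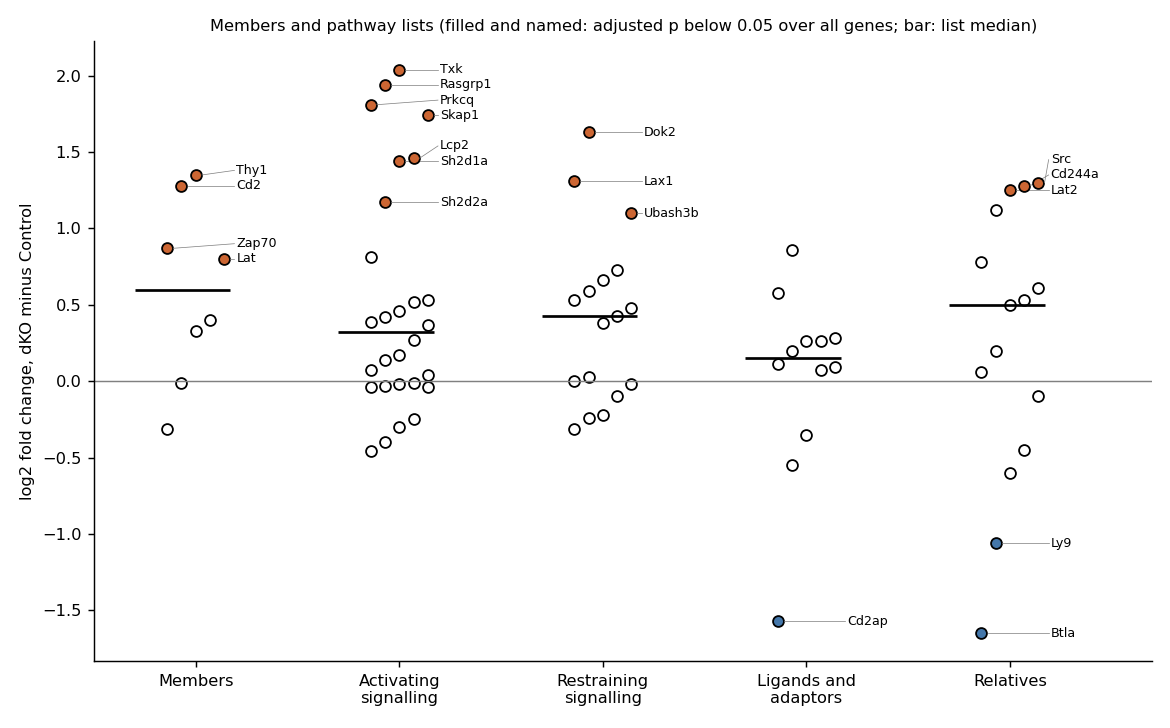
Log2 fold change (dKO minus Control) of the 8 measured members and of the genes of 4 pathway lists, 1 point per gene by its brightest probe set; filled and named points passed over all genes and bars are list medians. The 4 members that rose lie between 0.80 and 1.35, and 7 activating and 3 restraining signalling genes lie between 1.10 and 2.04.

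Among the partners of the member receptors only Cd2ap passed. Of 12 measured ligands and adaptors 0 rose and 1 fell (limma, over all genes; 2 and 1 at an unadjusted p below 0.05), with a median of 0.15. Cd2ap, an adaptor that binds the CD2 tail and actin, stood at 10.57, 10.48 and 10.52 in Control and 8.52, 9.30 and 9.04 in dKO, so every dKO array lay more than 1 log2 unit below the controls. The fall of Cd2ap was -1.57 ± 0.22 (SE), 2.98-fold (adjusted p = 0.00323), and its 3 probe sets ran from -1.57 to -1.47. With each array left out the adjusted p of Cd2ap was at most 0.0185.

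Cd48, the ligand of CD2 and a marker of the sort gate, stood between 11.09 and 11.69 in all arrays and changed by 0.20 ± 0.18 (SE, limma adjusted p = 0.664). The CD28 ligands Cd80 (0.09 ± 0.18) and Cd86 (0.11 ± 0.25), the CD27 ligand Cd70 (0.28 ± 0.21) and the CD6 ligand Alcam (-0.55 ± 0.30) did not pass. Cdcp1, another CD6 ligand, stood at 4.59 ± 0.39 in Control and 5.44 ± 0.31 in dKO (SD, n = 3), with adjusted p = 0.0819. Cd2bp2, which binds the CD2 tail, had adjusted p = 0.117, and 1 of its 3 probe sets had the opposite sign.

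Relatives of the members moved in both directions: 3 of 15 measured rose and 2 fell (limma, over all genes), with a median of 0.50, or 0.08 without dKO 3, and 1 rose without Control 3. Cd244a, a receptor of the CD2 family that also binds CD48, stood at 10.18, 10.27 and 10.36 in Control and 11.61, 11.80 and 11.24 in dKO. The rise of Cd244a was 1.28 ± 0.19 (SE, adjusted p = 0.00498), and its adjusted p was 0.0524 without Control 1 and dKO 1 together. Lat2, the LAT-like adaptor of B cells and mast cells, rose by 1.25 ± 0.24 (SE, adjusted p = 0.0153), but its 3 probe sets ran from 0.36 to 1.25 and their mean had adjusted p = 0.11. Its adjusted p was up to 0.0577 without Control 3 or dKO 2. The rise of Src (1.3 ± 0.31, adjusted p = 0.0419), named to complete the count, held only without dKO 2 among the settings with an array left out, and the mean of its probe sets had adjusted p = 0.11. Src did not pass after quantile (0.0529) or cyclic loess scaling (0.0618).

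The relatives that fell were Ly9, another receptor of the CD2 family (-1.06 ± 0.23, adjusted p = 0.0296), and Btla, an inhibitory receptor of lymphocytes (-1.65 ± 0.38, adjusted p = 0.0365). The Btla values were 7.26, 8.29 and 7.76 in Control and 5.78, 7.0 and 5.59 in dKO, a narrow gap between dKO 2 and Control 1. Neither passed without Control 2, Control 3, dKO 1 or dKO 3, or without Control 1 and dKO 1 together. Ctla4, the relative and chromosome neighbour of Cd28, was dim in all arrays (3.05 to 4.13) and changed by -0.10 ± 0.27 (SE, adjusted p = 0.912). Icos, the other activating relative of Cd28, changed by 1.12 ± 0.37 (SE, adjusted p = 0.136) in its brightest probe set, while 2 of its 3 probe sets passed over all probe sets. Cd84, of the CD2 family, changed by 0.53 ± 0.18 (SE, adjusted p = 0.143).

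Of 8 measured markers of mature T cells, 2 rose and 0 fell (limma, over all genes, and 4 and 0 at an unadjusted p below 0.05). Trac, Trbc1, Trbc2 and Tcf7 were also on this list but were not analysed. For this and the marker lists below, the shares over all genes were 3.12% higher and 2.85% lower (9.1% and 9.14% at that unadjusted p). Bcl11b, a T cell transcription factor, rose by 1.49 ± 0.26 (SE, adjusted p = 0.0112), while its other 3 probe sets lay between 0.02 and 0.25 and the mean of its probe sets changed by 0.46 with adjusted p = 0.143. The receptor chain Cd3d rose by 1.03 ± 0.19 (SE, adjusted p = 0.0129). The coreceptors that define mature T cells did not pass: Cd4 stood between 5.68 and 6.0 in Control and between 5.42 and 6.05 in dKO, and Cd8a between 5.87 and 6.05 and between 5.25 and 6.23. Cd3e (0.97 ± 0.35) and Cd3g (1.49 ± 0.45) had adjusted p = 0.161 and 0.0999. The count of T cell markers that rose was 1 when any 1 Control array, or Control 1 and dKO 1 together, were left out. Without dKO 3, 1 fell, Cd8a, by -0.68 (adjusted p = 0.0483). The summed linear level of the 8 markers ran from 1271 to 1855 in Control and from 1521 to 1684 in dKO, and most of it was Cd247, the zeta chain, which NK cells share. The log2 fold changes of the 4 Cd247 probe sets ran from -0.57 to 0.39. Without Cd247 the sum ran from 341 to 478 in Control and from 605 to 983 in dKO. RMA gives no true 0, so absence cannot be read from these values.

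Of 7 measured NK cell markers 5 rose and 0 fell, beside 3.12% and 2.85% of all genes. The summed linear level of the 7 ran from 621 to 929 in Control and from 1297 to 2890 in dKO. Ncr1, which defines NK cells and some related innate cells, stood at 5.06, 5.80 and 4.93 in Control and 7.28, 7.77 and 6.49 in dKO and rose by 1.91 ± 0.34 (SE, limma adjusted p = 0.0112). Eomes (2.36 ± 0.44), Il2rb (1.80 ± 0.28) and Klrk1 (1.76 ± 0.27) also rose. Klre1, which completes the count, had adjusted p = 0.0498, and 0.0523 after median centring. Klrd1 (0.77 ± 0.31) and Tbx21 (0.81 ± 0.30) did not pass. The count that rose was 3 without Control 3, without dKO 2, or without Control 1 and dKO 1 together. The dKO array with the lowest sum of NK markers was dKO 3, the array in which Thy1, Lat and the brightest Zap70 probe set had their highest values, and in which Cd2 had its lowest dKO value. The dimmest Zap70 probe set was, among dKO arrays, highest in dKO 1 and lowest in dKO 2. The sum of T cell markers without Cd247 was 763, 605 and 983 in dKO 1, 2 and 3, and thus also highest in dKO 3. With Cd247 kept, the sum of T cell markers was 1684, 1521 and 1608, and thus highest in dKO 1. The part of NK or T cell markers in the rise of the members was not tested.

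Some marker genes of other lineages that use Lat rose. Of 8 megakaryocyte markers 4 rose (Itga2b, Pf4, Ppbp and Itgb3) and 0 fell. Gp1bb (0.40 ± 0.18), Gp9 (0.25 ± 0.19), Vwf (0.21 ± 0.28) and Gp6 (0.07 ± 0.20) did not pass. The sum of the 8 ran from 2912 to 2944 in Control and from 9245 to 11115 in dKO. Its largest part was Pf4, the brightest of these 8 in every array. The integrin chain Itga2b rose by 1.51 ± 0.17 (SE, limma adjusted p = 0.00121). Of 8 mast cell and basophil markers 4 rose (Cpa3, Fcer1a, Mcpt8 and Gata2) and 0 fell, while Ms4a2, Tpsb2, Hdc and Kit did not pass. The sums of these 8 ran from 2165 to 2939 in Control and from 5258 to 7413 in dKO. The largest part of these sums was Gata2, the brightest of the 8 in every array. Gata2 stood between 9.92 and 10.79 in Control and between 11.57 and 11.87 in dKO. The basophil protease Mcpt8 rose by 2.42 ± 0.33 (SE, limma adjusted p = 0.00327). Of 5 group 2 innate lymphoid markers 1 rose and 0 fell, Gata3 by 1.25 ± 0.21 (SE, adjusted p = 0.00786), with sums from 290 to 395 and from 473 to 610. Their part in the rise of Lat and Thy1 was not tested.

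Of 5 B cell markers 0 passed in either direction (limma; 0 also at an unadjusted p below 0.05), and their sums overlapped (266 to 383 in Control and 332 to 425 in dKO). Of 6 plasmacytoid dendritic cell markers 0 rose and 1 fell, Bst2 by -1.16 ± 0.18 (SE, adjusted p = 0.00622), with sums from 2720 to 3215 in Control and from 1590 to 2334 in dKO; without dKO 3, 4 fell. Of 5 early progenitor and gate genes 0 rose and 1 fell, the lymphoid-primed receptor Flt3 by -2.73 ± 0.27 (SE, adjusted p = 0.000668). The gate gene Slamf1, which encodes CD150, changed by 0.78 ± 0.34 (SE, adjusted p = 0.264), and Kit by -0.29 ± 0.19 (SE, adjusted p = 0.504). Ly6a, which encodes Sca1, was not analysed here.

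**Figure D4:**
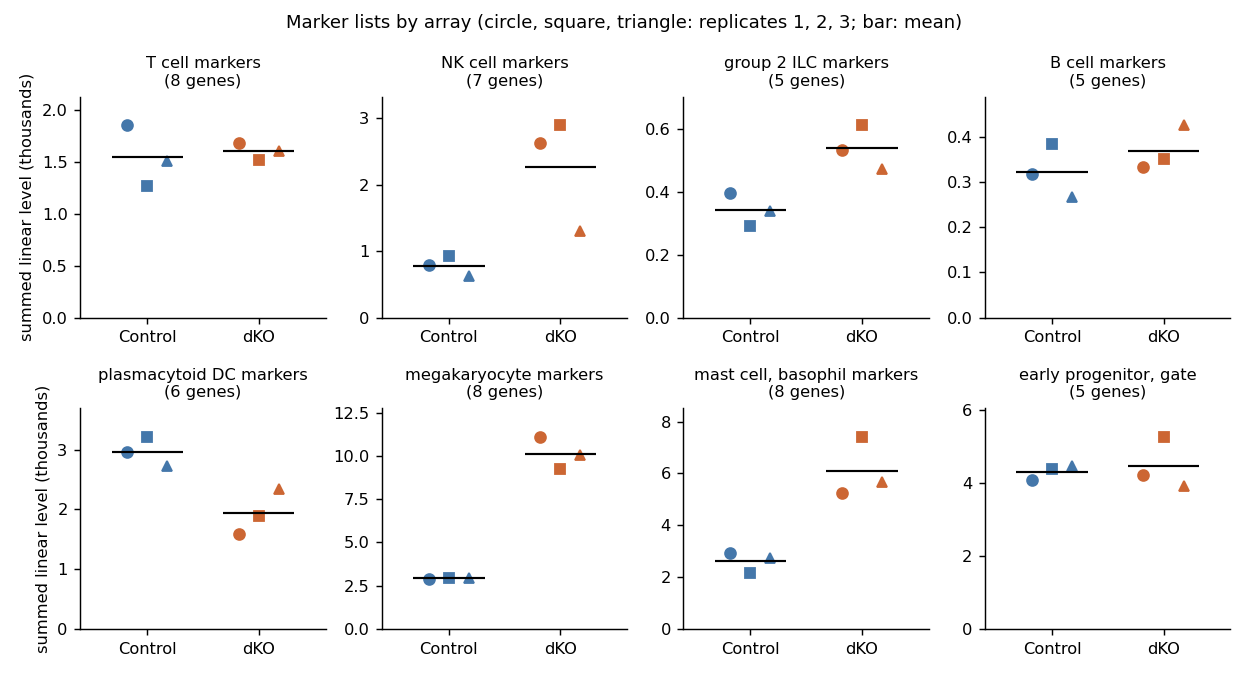
Summed linear level (log2 values turned back to the linear scale) of each marker list in each array; the bars are group means and each axis starts at 0 and has its own span. The NK, megakaryocyte, mast cell and group 2 innate lymphoid sums are higher in every dKO array, the plasmacytoid dendritic cell sum is lower, and the T cell, B cell and progenitor sums overlap.

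By pattern over the 6 arrays, the genes most like the mean centred profile of the 8 members were Tnfsf11 (Pearson r = 0.994), Pim2 (0.993), Hddc3 (0.993), Slc2a3 (0.990) and Ikzf3 (0.990). Of 18185 other genes 154 had r of at least 0.95, and these genes, like the members that rose, share the split of the 6 arrays into 2 groups. The mean profile was -0.16, -0.32 and -0.41 in Control 1, 2 and 3 and 0.19, 0.35 and 0.34 in dKO 1, 2 and 3 (log2 units from each gene's mean). Control 1 thus lay highest among the controls and dKO 1 lowest among the dKO arrays.

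**Figure D5:**
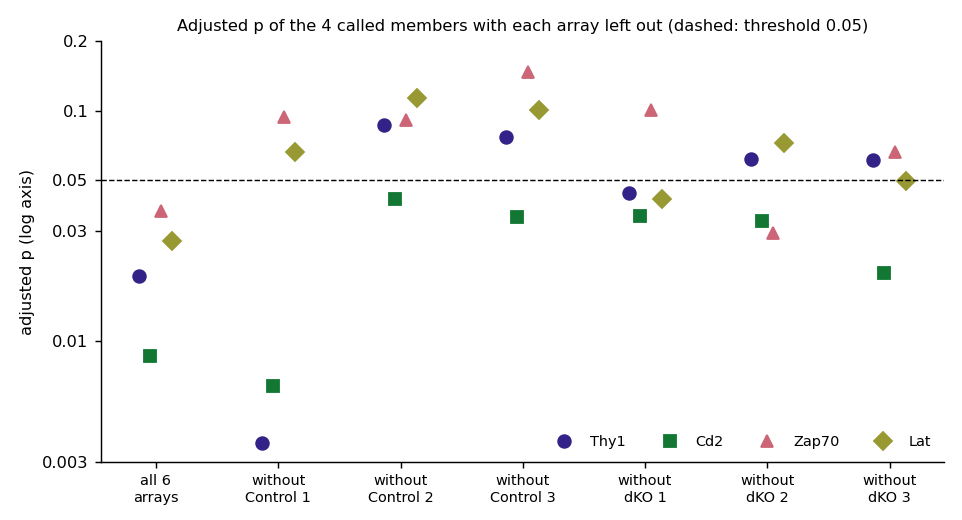
Adjusted p (limma, over all genes, log axis) of the 4 members that rose, with all 6 arrays and with each array left out. Cd2 stays below the threshold of 0.05 throughout, and Zap70 does so only with all arrays and without dKO 2.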

How the data were processed

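Per the labels' protocols, Trizol was used to extract the RNA, a Nugen kit to amplify it in 2 rounds, and Affymetrix kits to label it with biotin. The authors deposited log2 values from RMA (per the submitters' processing notes). Its version is not given in the sources used here. RMA compresses differences of dim probe sets.

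Groups came from the sample titles. Of 45101 probe sets, 64 Affymetrix controls were left out, and the platform annotation gave 1 symbol to 34945 (updated through RefSeq gene identifiers for 34741), several to 932 and none to 9160. The brightest probe set by its mean of 6 arrays represented each gene. dKO was compared with Control with limma 3.58.1 in R 4.3.3 (lmFit, eBayes, group as the only term, two-sided, Benjamini-Hochberg over all 18193 genes, threshold 0.05), and again over all 45037 probe sets. Errors are SDs over 3 pools or SEs of the fit, and the number of arrays limits the precision. On simulated data (200 of 18193 genes changed, 20 runs) the fit recovered 0.672% of 1.5-fold, 29.7% of 2-fold and 82.7% of 4-fold changes, and 2.82% of its calls were false. Figures used matplotlib 3.10.9.

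The members and lists were chosen with earlier results of these data known. Named genes are every member, up to 4 called and 2 uncalled genes with the smallest p of each list, fixed relatives, ligands, gate genes and defining markers, and the 5 genes most like the members; not all marker genes that the rule admits are printed. Alternatives covered a filter on dim genes (mean below 6), the choice of probe set, 3 scalings, a replicate block, array weights, another variance model, adjustment over probe sets and leaving out arrays. Leaving out arrays for the marker counts was chosen after seeing the data.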

Additional observations from a re-analysis of the deposited data

How the results depend on the processing

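With 1 array left out, 1 to 3 members were higher (4 with all arrays), 0 to 2 of their probe sets passed over all probe sets (4), 2 to 3 restraining genes were higher (median log2 fold change 0.35 to 0.52), and 1 to 3 relatives were higher and 0 to 2 lower (median 0.08 to 0.60). Without Control 1 and dKO 1 together, 2 members and 1 of their probe sets were higher, and 0 relatives were lower. With dim genes filtered out, or with the mean of probe sets, 5 restraining genes were higher (3 in the reported fit). With array weights the median was 0.27 for restraining genes and 0.38 for relatives. With adjustment over all probe sets 0 relatives were lower. Cd6, which did not pass in any setting that tested it, turned sign with repeated quantile normalization (0.00) and with both pools of Xist signal left out (0.09), and ran from -0.13 to 0.16 with 1 array left out. That filter removed Cd6 and Cd5. Over all genes, 331 to 617 were higher with 1 array left out (567 in the reported fit). The cause of these shifts was not tested, but settings with fewer arrays have fewer degrees of freedom.

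Deviations from the group means correlated at 0.06, 0.00 and 0.02 between same-numbered arrays, and at -0.05 to 0.04 between the others. With 3 arrays per group these values cannot show whether the replicate numbers pair the samples. Control 1 and dKO 1 alone shared Xist signal. With the replicate block 2 members (Thy1 and Cd2) and 2 of their probe sets were higher, with adjusted p = 0.071 for Zap70 and 0.0597 for Lat. Scaling again by median, quantile or cyclic loess left 4 members higher and moved the median of all genes to between 0.03 and 0.05. In the simulated data 0.672% of 1.5-fold changes were recovered, and no other change under 2-fold was simulated. Only 200 genes were changed there, whereas the reported fit called 567 genes higher and 519 lower. Recovery in the reported fit need not be the same. The members that did not pass may still differ.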
